A study of Mus musculus with 6 samples.

Results

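The genes described here encode the NF-kappaB transcription factor subunits and the inhibitor proteins that hold them in check, in livers of mice homozygous for the Lmna G609G allele and of wild-type mice. Members were taken as the 10 genes Nfkb1, Nfkb2, Rel, Rela, Relb, Nfkbia, Nfkbib, Nfkbie, Nfkbiz and Bcl3, each read from a probe set annotated with that symbol alone. Of these, 9 had such a probe set (1 each), among 19938 genes with a probe set of that kind in the whole table. Nfkb1 was not analysed here. All 9 probe sets passed the filter on dim signal.

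Liver RNA of 6 female C57BL/6 mice was hybridised to 1-colour arrays, with 1 array per mouse. The 3 knock-in mice, LmnaG609G/G609G, are numbered 1, 3 and 5 in the labels and the 3 wild-type mice 2, 4 and 6. Every mouse was 3 months old and was deprived of food for 6 h before death. The G609G allele is carried in the germ line and alters splicing of the Lmna transcript, so every cell of the animal bears it, and homozygotes serve to model the early ageing of Hutchinson-Gilford progeria. The question put to these arrays is how the genotypes differ in liver transcripts.

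NF-kappaB is a family of dimeric factors. Rela, Rel and Relb carry a transactivation domain, while Nfkb1 and Nfkb2 are made as precursors that are processed into DNA-binding subunits. In resting cells the dimers are retained in the cytoplasm by the classical inhibitors encoded by Nfkbia, Nfkbib and Nfkbie, which are degraded after phosphorylation by the IkappaB kinase complex. Nfkbiz and Bcl3 encode atypical family members that act in the nucleus, and Nfkbia is itself a direct target whose product ends the response. In liver the pathway drives inflammatory genes in Kupffer cells and protects hepatocytes from death induced by tumour necrosis factor.

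The regulatory sequences of the members that differed between the genotypes are shown beside those of Nfkbia and Nfkb2, inhibitor and subunit genes whose promoters are known to respond to NF-kappaB. Each run is the 250 bases before a transcript start annotated for the gene, 5′ to 3′ on the strand of the gene, from RefSeq for GRCm38.p6, with matches to the kappaB consensus in capitals.
Rela: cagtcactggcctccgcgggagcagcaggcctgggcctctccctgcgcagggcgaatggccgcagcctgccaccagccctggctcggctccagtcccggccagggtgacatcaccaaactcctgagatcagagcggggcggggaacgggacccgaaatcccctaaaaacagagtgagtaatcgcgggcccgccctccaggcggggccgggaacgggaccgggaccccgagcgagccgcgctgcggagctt
Rel: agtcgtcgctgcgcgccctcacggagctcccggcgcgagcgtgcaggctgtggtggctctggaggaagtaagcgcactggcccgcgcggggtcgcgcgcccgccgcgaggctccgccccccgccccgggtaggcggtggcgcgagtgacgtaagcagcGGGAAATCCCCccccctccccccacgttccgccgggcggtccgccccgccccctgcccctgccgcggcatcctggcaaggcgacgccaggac
Nfkbib: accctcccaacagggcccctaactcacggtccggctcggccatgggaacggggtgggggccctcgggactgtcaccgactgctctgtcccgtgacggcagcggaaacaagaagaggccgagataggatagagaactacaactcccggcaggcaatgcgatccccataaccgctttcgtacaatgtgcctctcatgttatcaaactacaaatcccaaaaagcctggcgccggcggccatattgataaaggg
Nfkbia: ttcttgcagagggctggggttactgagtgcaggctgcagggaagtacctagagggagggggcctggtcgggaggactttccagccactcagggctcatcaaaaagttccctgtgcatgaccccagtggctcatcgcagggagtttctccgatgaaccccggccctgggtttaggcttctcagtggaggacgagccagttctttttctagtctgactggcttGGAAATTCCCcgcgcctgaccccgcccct
Nfkb2: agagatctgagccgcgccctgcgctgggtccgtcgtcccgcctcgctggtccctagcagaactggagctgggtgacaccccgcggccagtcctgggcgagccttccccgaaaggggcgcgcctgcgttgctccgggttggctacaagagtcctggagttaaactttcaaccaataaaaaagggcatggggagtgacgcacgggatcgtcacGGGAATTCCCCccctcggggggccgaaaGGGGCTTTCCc
The windows lie at chr19:5637291-5637540 (plus strand) for Rela, chr11:23770970-23771219 (minus strand) for Rel, chr7:28766645-28766894 (minus strand) for Nfkbib, chr12:55492648-55492897 (minus strand) for Nfkbia and chr19:46304487-46304736 (plus strand) for Nfkb2. A gene with several transcripts can start further upstream, and the windows of Rela and Bcl3 (in part) and the printed one of Nfkb2 (whole) lie inside the annotated span of their gene. Both strands were searched for GGGRNWYYCC (R for A or G, N for any base, W for A or T, Y for C or T). This consensus occurred in 3.90% of 32851 windows of this length. The promoter table matched 7 of the 10 genes, without Nfkb1, Relb and Nfkbiz, and 4 of the 7 (Rel, Nfkbia, Nfkbie and Nfkb2) held it. Counted by window, as the background is, 6 of 9 member windows held it. Nfkb2 had several windows and so more chances of a match. In Rel, 2 overlapping matches began 92 and 91 bases before the start. The Nfkbia match began 29 bases before the start. In Nfkb2, matches began 39, 38 and 11 bases before this internal start, and each of its other 2 annotated windows held 1 match. Nfkbie held 1 match, 106 bases before its start, and Rela, Nfkbib and Bcl3 held none. Of the 3 members that were higher in knock-in liver, then, Rel had the consensus in this window and Rela and Nfkbib did not, while Nfkbia, Nfkbie and Nfkb2 had it and were not called. A match is a string of letters, not evidence of a bound site, and its absence says only that these letters are not in this window.

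Rela, Rel and Nfkbib were higher in knock-in liver, by 1.71-fold to 2.15-fold, and the other 6 members did not pass the test. A probe set was called where limma gave a p below 0.05 after Benjamini-Hochberg adjustment. That held for 3 of 9 members, all 3 higher, where 25.9% of 26664 tested probe sets were called (15.0% higher and 10.9% lower). With 9 genes, a count of 3 lies near that background. The values of knock-in and wild-type mice did not overlap for 4 members, all higher in knock-in mice (Rela, Rel, Nfkbib and Nfkbiz), beside 41.2% of all tested probe sets (24.0% with knock-in mice higher). Changes are given as log2 differences, knock-in minus wild-type, of log2(intensity + 16), a scale that understates the change of dim probe sets. A change carries its standard error, and an intensity its standard deviation over the 3 mice of a genotype.

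**Figure D1:**
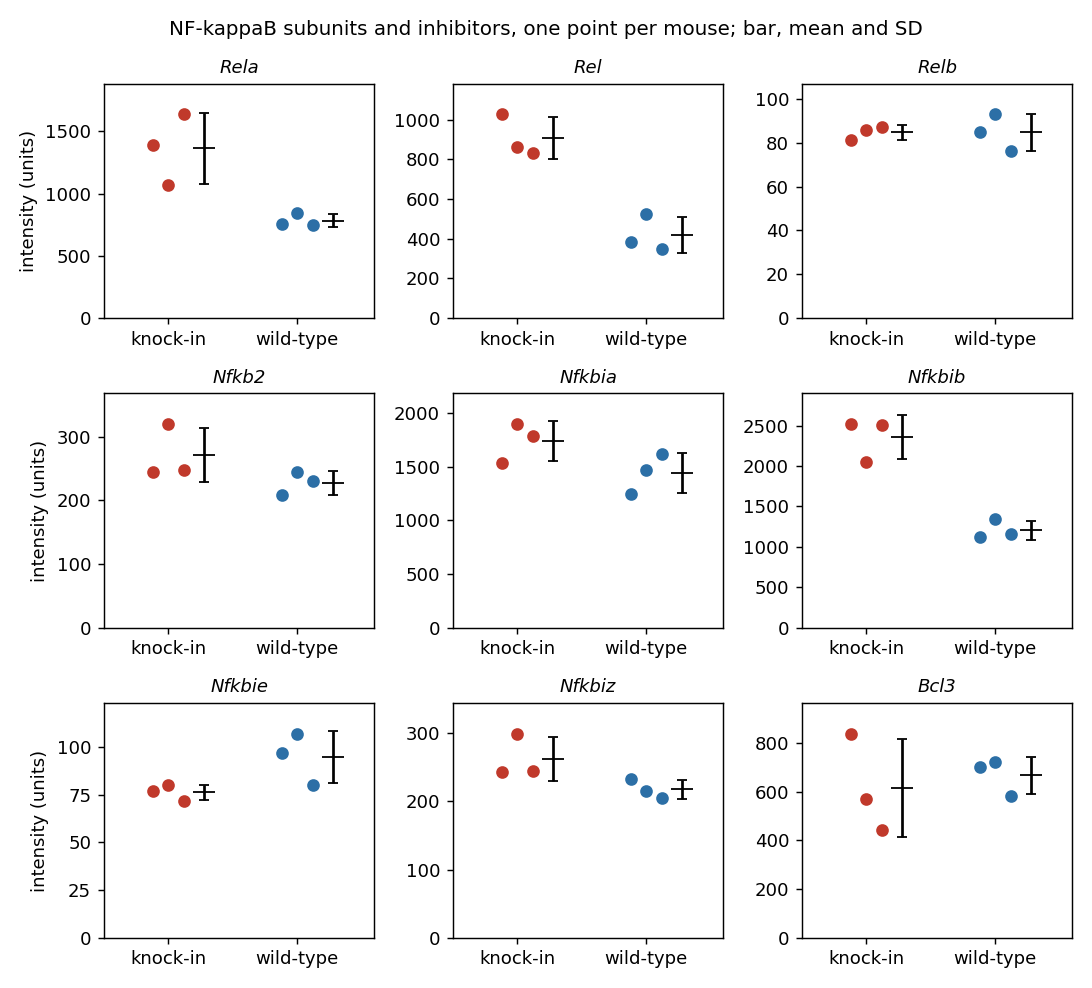
Intensity (linear axis from 0, a separate scale in each panel) of the 9 measured members, with a red point for each knock-in mouse, a blue point for each wild-type mouse, and a bar for mean and SD (n = 3 each). The points of Rela, Rel, Nfkbib and Nfkbiz do not overlap between the genotypes, while those of Relb, Nfkb2, Nfkbia and Bcl3 do, and the highest knock-in and lowest wild-type values of Nfkbie are equal.

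Among the subunits, Rela encodes the activating partner of the most abundant NF-kappaB dimer (gene at chromosome 19, 5637442 to 5648134, in GRCm38.p6; probe set 10460631). It read 1388, 1070 and 1638 in the knock-in mice, against 757, 843 and 749 in the wild-type mice. The lowest knock-in value was above the highest wild-type value, and knock-in replicate 3 lay nearest to the wild-type mice. The means were 1365 ± 285 in knock-in and 783 ± 52.1 in wild-type liver. The log2 change was 0.77 ± 0.16 (1.71-fold; 95% interval 0.40 to 1.14), and passed with a limma adjusted p = 0.0114.

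Rel encodes c-Rel, a transactivating subunit best known from lymphoid and myeloid cells (chromosome 11, 23736847 to 23770969; probe set 10384725). It read 1027, 863 and 832 in knock-in mice and 382, 523 and 349 in wild-type mice, with no overlap. Every knock-in mouse exceeded the highest wild-type mouse, replicate 4. The log2 change was 1.10 ± 0.16 (2.15-fold; limma adjusted p = 0.00348; 95% interval 0.72 to 1.49), the largest among the 9 members in either direction. In bulk tissue a difference in the number of cells of a type and a difference in RNA per cell cannot be told apart.

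Relb and Nfkb2 encode the partners of the alternative pathway, which runs through the kinase gene Map3k14. Relb (chromosome 7, 19606217 to 19629438; probe set 10560575) read 81, 86 and 87 in knock-in mice and 85, 93 and 76 in wild-type mice. Its means were 84.7 ± 3.21 in knock-in and 84.7 ± 8.50 in wild-type liver, and its log2 change was 0.0030 ± 0.085 (limma adjusted p = 0.987; 95% interval -0.20 to 0.20). The signal was dim, with a mean at the 44.9th percentile of all probe sets, which limits what a change in the transcript would show. Nfkb2 (chromosome 19, 46300994 to 46312400; probe set 10463599) read 245, 320 and 248 in knock-in mice and 208, 245 and 231 in wild-type mice. Knock-in replicate 3 was the highest, while knock-in replicates 1 and 5 lay at or just above wild-type replicate 4, so the genotypes met. The log2 change of Nfkb2 was 0.23 ± 0.13 and did not pass (limma adjusted p = 0.244; 95% interval -0.070 to 0.52). Without knock-in replicate 3 it was 0.11.

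Of the classical inhibitors, Nfkbib encodes IkappaB-beta, whose own gene is less directly driven by NF-kappaB than Nfkbia (chromosome 7, 28758251 to 28766644; probe set 10561516). It read 2519, 2047 and 2512 in knock-in mice, against 1118, 1342 and 1161 in wild-type mice. The genotypes were well apart, and knock-in replicate 3 was again the knock-in mouse nearest to wild-type. The log2 change was 0.96 ± 0.12 (1.94-fold; limma adjusted p = 0.00197; 95% interval 0.67 to 1.24), with the smallest p of the 9 members.

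Nfkbia encodes IkappaB-alpha, the fast-turnover inhibitor that NF-kappaB induces (chromosome 12, 55489409 to 55492647; probe set 10400405). It read 1532, 1898 and 1790 in knock-in mice and 1243, 1467 and 1617 in wild-type mice. The ranges overlapped, since knock-in replicate 1 lay below wild-type replicate 6. The means were 1740 ± 188 in knock-in and 1442 ± 188 in wild-type liver, a log2 change of 0.27 ± 0.13 that did not pass (limma adjusted p = 0.177; 95% interval -0.034 to 0.58).

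Nfkbie, for IkappaB-epsilon, read 77, 80 and 72 in knock-in mice and 97, 107 and 80 in wild-type mice (chromosome 17, 45555700 to 45563169; probe set 10445412). Wild-type replicate 6 equalled the highest knock-in mouse and the other wild-type mice lay above. The log2 change was -0.25 ± 0.10 (limma adjusted p = 0.116; 95% interval -0.50 to -0.013). Without wild-type replicate 6 it passed, at -0.35 (adjusted p = 0.0475), so that 1 member was then called lower beside the 3 called higher. This probe set was dim as well, at the 45.2nd percentile.

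The nuclear members did not pass. Nfkbiz, for IkappaB-zeta, a coactivator of secondary response genes such as Lcn2, read 243, 299 and 244 in knock-in mice and 233, 215 and 205 in wild-type mice (chromosome 16, 55811375 to 55838954; probe set 10439936). The lowest knock-in value was just above the highest wild-type value, and the log2 change was 0.25 ± 0.11 (limma adjusted p = 0.15; 95% interval -0.013 to 0.51). Bcl3, which binds homodimers of the processed subunits, read 838, 570 and 443 in knock-in mice and 700, 723 and 582 in wild-type mice (chromosome 7, 19808462 to 19822824; probe set 10560685). The knock-in mice spread on both sides of the wild-type mice, with replicate 1 highest and replicate 5 lowest of all 6. Its log2 change of -0.15 ± 0.22 (limma adjusted p = 0.671; 95% interval -0.67 to 0.36) turned to 0.054 without knock-in replicate 5.

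**Figure D2:**
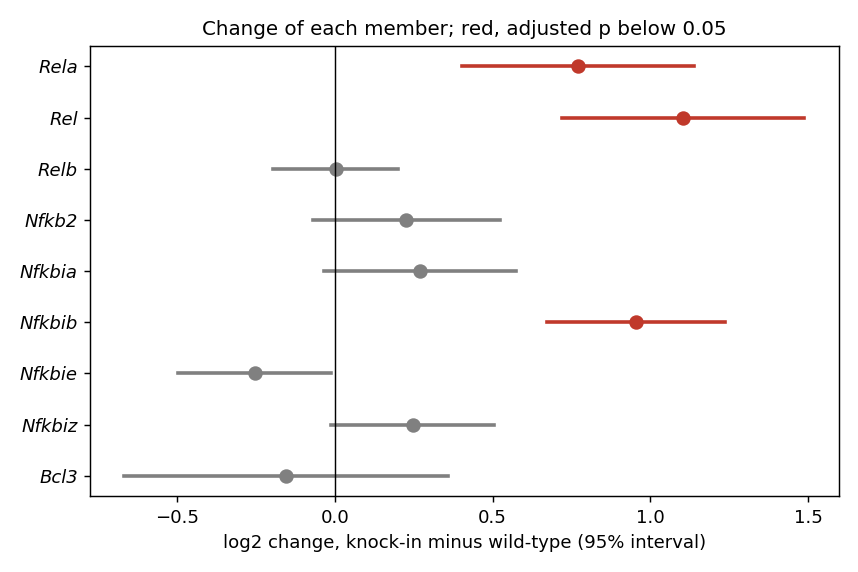
Log2 change (knock-in minus wild-type, horizontal axis) of each member with its 95% interval from limma, n = 3 mice per genotype. Rela, Rel and Nfkbib (red) have intervals above 0 and an adjusted p below 0.05. The interval of Nfkbie ends at -0.013, and its adjusted p of 0.116 missed the threshold.

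Over all probe sets, the array of knock-in replicate 3 correlated with the wild-type arrays at 0.976 to 0.980, and the arrays of knock-in replicates 1 and 5 at 0.960 to 0.969. Without it the calls of Rela, Rel and Nfkbib stood, with 3 members higher and 0 lower, as they did without each other mouse in turn apart from the call of Nfkbie above. The Lmna probe set read 290, 249 and 258 in knock-in mice and 282, 267 and 362 in wild-type mice (log2 change -0.17 ± 0.13, limma adjusted p = 0.398), and, reporting total signal, does not check a splicing allele. Hepatocyte markers such as Alb, at 16607 or above on every array, were bright, as the tissue label implies. Array medians were 101, 104 and 104 in knock-in mice and 97, 101.5 and 98 in wild-type mice.

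Markers of cells that use these genes were read on the same arrays. Summed over 15 Kupffer cell and macrophage markers, intensity ranged from 3973 to 6809 in knock-in mice and from 5700 to 9669 in wild-type mice, with 1 marker under the 25th percentile. Of the 14 tested, 2 had a positive change, and the median log2 change was -0.30. Named after their values were seen, Adgre1 and Aif1 were called lower and Itgam higher. That share, 21.4%, stands beside 25.9% of all tested probe sets. Over 13 lymphocyte markers, of which 5 were under the 25th percentile, sums were 686 to 724 in knock-in and 737 to 823 in wild-type mice. Neutrophil markers, 4 of 14 under the percentile, summed to 914 to 952 in knock-in mice and 678 to 757 in wild-type mice. Hepatocyte markers, 0 of 8 under the percentile, summed to 104654 to 110634 in knock-in and 95067 to 99014 in wild-type mice. Of the 8, 3 (Hnf4a, Arg1 and Tat, named after their values were seen) were called higher and 0 lower. That share, 37.5%, stands beside 25.9% of all tested probe sets. Alb and Cps1 were up without a call. Ttr (-0.21 ± 0.070), Apob (-0.14 ± 0.087) and Apoa1 (-0.067 ± 0.051) were down without a call. Ttr was lower in every knock-in mouse than in any wild-type mouse. Sums of hepatocyte and neutrophil markers were thus higher, and those of lymphocyte markers lower, in knock-in mice without overlap, and the neutrophil and lymphocyte sums rested in part on probe sets under the percentile. These sums of linear intensity are weighted to the brightest genes and do not show a shift of every marker. Positive changes were found for 5 of 8 tested hepatocyte, 8 of 10 neutrophil and 1 of 8 lymphocyte markers. Of the lymphocyte markers only Cd79b was called, lower. Of the 10 tested neutrophil markers, 4 (S100a8, Retnlg, Mmp9 and Il1r2, named after their values were seen) were called higher and 0 lower. That share, 40%, stands beside 25.9% of all tested probe sets. Endothelial sums (10 genes) were 5803 to 7896 in knock-in and 6940 to 7437 in wild-type mice. These overlapping sums held calls in both directions, 2 higher (Lyve1 and Vwf) and 4 lower (Stab2, Kdr, Clec4g and Oit3). That share, 60%, stands beside 25.9% of all tested probe sets. Stellate sums (10 genes) were 8134 to 9546 in knock-in and 7310 to 8241 in wild-type mice. Dcn was called higher and Lrat lower, a share of 20%. The called endothelial and stellate markers are named after their values were seen. Cholangiocyte sums (6 genes) were 519 to 597 in knock-in and 510 to 556 in wild-type mice, with 0 called. No marker was at 0, and the part of cell composition in the changes of Rela, Rel and Nfkbib was not tested.

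Upstream of the members, kinases and adaptors were called in both directions. Of 37 listed, 32 were tested, 10 rose, 5 fell and 17 did not pass, with a median log2 change of 0.071 beside 0.028 over all tested probe sets. The called share was 46.9%, where 25.9% of all tested probe sets were called (15.0% higher and 10.9% lower). Tab2, an adaptor that links ubiquitin chains to the kinase encoded by Map3k7, read 3624, 3371 and 3960 in knock-in mice and 1840, 1766 and 1691 in wild-type mice. Its log2 change was 1.04 ± 0.091 (limma adjusted p = 0.000624), with the genotypes far apart. Traf6, the ubiquitin ligase of the interleukin-1 and Toll-like receptor branch, rose by 0.64 ± 0.13. The kinase genes Map3k3 and Map3k8 rose by 0.61 ± 0.10 and 0.67 ± 0.14. The others that rose, named after their values were seen, were Tab1, Tab3, Bcl10, Malt1, Tbk1 and Prkcd. The 5 that fell, of which Xiap, Ikbke and Btrc are named because the count is small, were Xiap (-1.05 ± 0.22), Irak2 (-0.50 ± 0.10), Tirap (-0.55 ± 0.11), Ikbke (-0.57 ± 0.12) and Btrc (-0.53 ± 0.14). Tirap and Irak2 carry signals from Toll-like receptors, and Btrc encodes the ligase subunit that marks phosphorylated inhibitors for degradation. Btrc missed the threshold when any wild-type mouse, or knock-in replicate 1 or 5, was left out (adjusted p = 0.0690 to 0.102), as did Xiap without knock-in replicate 1 (adjusted p = 0.0536) and Ikbke without wild-type replicate 2 (adjusted p = 0.0529). Without wild-type replicate 6, 4 of the list rose, and 3 fell with wild-type replicate 2 or knock-in replicate 1 left out. With each array centred on its median, 8 rose and 7 fell.

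The core of the IkappaB kinase complex was not called. Ikbkb, the catalytic subunit of the canonical branch, read 456, 480 and 487 in knock-in mice and 582, 567 and 566 in wild-type mice. All 3 knock-in mice were below all 3 wild-type mice, with a log2 change of -0.26 ± 0.087 (limma adjusted p = 0.0638). It passed with quantile normalization (adjusted p = 0.0470), centred arrays (adjusted p = 0.0378), array weights (adjusted p = 0.0326) and eBayes without trend (adjusted p = 0.0340). Ikbkg, the regulatory subunit NEMO, read 421, 534 and 341 in knock-in mice and 523, 441 and 576 in wild-type mice, which overlap (-0.26 ± 0.18, limma adjusted p = 0.345). Atm, whose kinase can signal to NEMO after DNA damage, had a log2 change of -0.063 ± 0.11 (limma adjusted p = 0.739). Map3k14, the kinase of the alternative pathway, read 110, 114 and 108 in knock-in mice and 95, 95 and 96 in wild-type mice. Its genotypes did not overlap, yet its log2 change of 0.19 ± 0.069 did not pass (limma adjusted p = 0.0900). Chuk, for the other catalytic subunit, had no probe set with its symbol alone.

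Ligands and receptors that feed the pathway also split. Of 39 listed, 32 were tested, of which 4 rose, 6 fell and 22 did not pass (median log2 change -0.050). The called share was 31.2%, beside 25.9% of all tested probe sets. Those that rose were the receptor genes Cd14 (1.55 ± 0.11), Tnfrsf12a (1.55 ± 0.24), Tnfrsf1b (1.22 ± 0.17) and Il17ra (0.87 ± 0.16). Tnfrsf1b, for the second receptor of tumour necrosis factor, read 1581, 1760 and 1555 in knock-in mice and 522, 746 and 838 in wild-type mice. Each knock-in mouse was above each wild-type mouse. Tnfrsf12a, the receptor of TWEAK, read 1115, 596 and 1184 in knock-in mice and 311, 304 and 299 in wild-type mice, with knock-in replicate 3 nearest to wild-type. Those that fell were Ddx58, for the RNA sensor RIG-I (-1.39 ± 0.14), Il1rap, the accessory chain of the interleukin-1 receptor (-0.98 ± 0.19), and, named after their values were seen, Ly96 (-1.38 ± 0.30), Tlr3 (-0.85 ± 0.16), Il1a (-0.80 ± 0.17) and Nod1 (-0.54 ± 0.12). Ly96 encodes the partner of the endotoxin receptor to which the Cd14 product delivers its ligand. It read 120, 141 and 184 in knock-in mice and 423, 624 and 251 in wild-type mice, without overlap. Ly96 missed the threshold without knock-in replicate 1 (adjusted p = 0.0607), and Nod1 without wild-type replicate 2 (adjusted p = 0.0596). Il1rap read 842, 1288 and 764 in knock-in mice and 1871, 1812 and 1909 in wild-type mice, without overlap. Tnf itself read 44, 47 and 51 in knock-in mice and 54, 44 and 51 in wild-type mice, near the dim end of the array in both genotypes (limma adjusted p = 0.708).

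**Figure D3:**
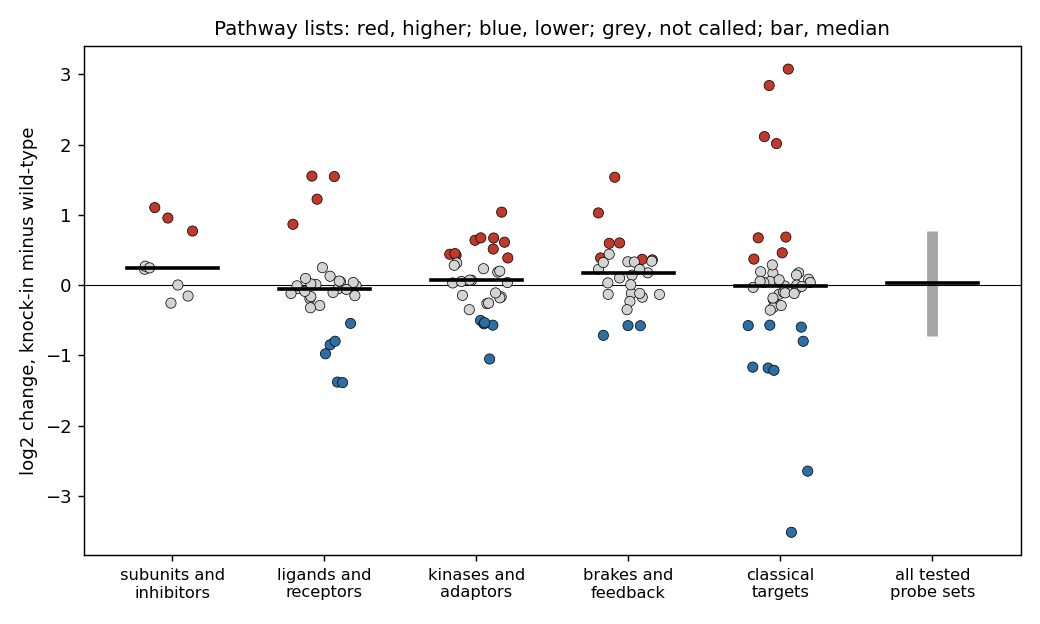
Log2 change (knock-in minus wild-type, vertical axis) of every tested gene of the members and of 4 pathway lists, each point a gene (red, called higher; blue, called lower; grey, not called) and each bar a median. The grey column spans the 5th to 95th percentiles of all tested probe sets, -0.73 to 0.77; each of the 4 pathway lists holds red and blue points, and the members hold red and grey ones.

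Genes that restrain the pathway included 7 that rose and 3 that fell of 29 tested (31 listed), with 19 that did not pass and a median log2 change of 0.18. The called share was 34.5%, beside 25.9% of all tested probe sets. Irak3, which blocks interleukin-1 and Toll-like receptor signalling, read 449, 457 and 552 in knock-in mice and 144, 202 and 131 in wild-type mice. The genotypes were far apart, with a log2 change of 1.54 ± 0.16 (limma adjusted p = 0.00117). Zfp36, for tristetraprolin, a protein that destabilises cytokine mRNAs, read 1638, 1711 and 2014 in knock-in mice and 691, 967 and 968 in wild-type mice (1.03 ± 0.16). Tnip2 and Tax1bp1, partners of the deubiquitinase A20, rose by 0.60 ± 0.11 and 0.60 ± 0.12. Cyld, Itch and Zc3h12a, named after their values were seen, also rose. Those that fell were Rnf11 (-0.71 ± 0.11), also an A20 partner, Birc3 (-0.57 ± 0.11), a ubiquitin ligase and NF-kappaB target, and Commd1 (-0.58 ± 0.14), which promotes removal of the Rela protein and is named because the count is small. Commd1 missed the threshold when any wild-type mouse, or knock-in replicate 1 or 5, was left out (adjusted p = 0.0502 to 0.0846). Tnfaip3, the gene of A20 and a sensitive target of the pathway, read 156, 125 and 119 in knock-in mice and 108, 126 and 113 in wild-type mice, which overlap (0.18 ± 0.11, limma adjusted p = 0.315). Its log2 change was 0.070 without knock-in replicate 1. With wild-type replicate 6 or knock-in replicate 1 left out, 4 of the list rose. Tsc22d3, a glucocorticoid-induced gene whose product binds NF-kappaB subunits, read 1217, 1083 and 1074 in knock-in mice and 660, 1246 and 1384 in wild-type mice (0.10 ± 0.26, limma adjusted p = 0.823), and its log2 change was -0.22 without wild-type replicate 2.

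Classical targets were called about as often in each direction. Of 49 listed, 42 were tested, of which 8 rose, 9 fell and 25 did not pass, with a median log2 change of -0.014. The called share was 40.5%, beside 25.9% of all tested probe sets. Without knock-in replicate 1, 5 fell. Gadd45b, a stress sensor, read 2354, 1123 and 2315 in knock-in mice and 173, 200 and 242 in wild-type mice. Myc read 1877, 1536 and 2963 in knock-in mice and 188, 247 and 428 in wild-type mice (log2 change 2.84 ± 0.33, limma adjusted p = 0.00148). Bcl2l1, which protects cells from apoptosis, read 1189, 1329 and 1701 in knock-in mice and 264, 296 and 377 in wild-type mice (2.11 ± 0.17). All 3 genes separated the genotypes in every mouse, and each is also controlled by factors other than NF-kappaB. Ier3 rose by 0.68 ± 0.081. Ccnd1, a cyclin of cell cycle entry, read 155, 225 and 177 in knock-in mice and 2723, 2065 and 2070 in wild-type mice (-3.52 ± 0.17, limma adjusted p = 8.16e-05). Cxcl9, a chemokine gene that interferon-gamma also drives, read 96, 215 and 89 in knock-in mice and 873, 819 and 880 in wild-type mice. The other called targets are named after their values were seen. Lcn2 (2.01 ± 0.24), Icam1 (0.46 ± 0.11), Mmp9 (0.37 ± 0.085) and Map3k8 rose. Mmp9 is also among the neutrophil markers above. F3 (-1.21 ± 0.23), Irf1 (-1.18 ± 0.27), Cd74 (-1.17 ± 0.35), Csf1 (-0.60 ± 0.16), Sod2 (-0.57 ± 0.14), Il1a and Birc3 fell.

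The cytokine targets Cxcl1, Ccl2 and Il6 were not called. Cxcl1, for a neutrophil-attracting chemokine, read 148, 179 and 157 in knock-in mice and 141, 153 and 130 in wild-type mice, which overlap (0.17 ± 0.10, limma adjusted p = 0.271). Ccl2 read 58, 59 and 57 in knock-in mice and 56, 53 and 57 in wild-type mice (0.053 ± 0.061, limma adjusted p = 0.589). Il6 read 13, 13 and 12 in knock-in mice and 15, 13 and 14 in wild-type mice, below the filter, and was not tested. At this brightness a change of Ccl2 or Il6 may not be detectable. The lists share 9 genes, and their counts are to be read against the background of 25.9%. That background covers all tested probe sets, also those without a single symbol, while a list counts 1 probe set per gene.

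**Figure D4:**
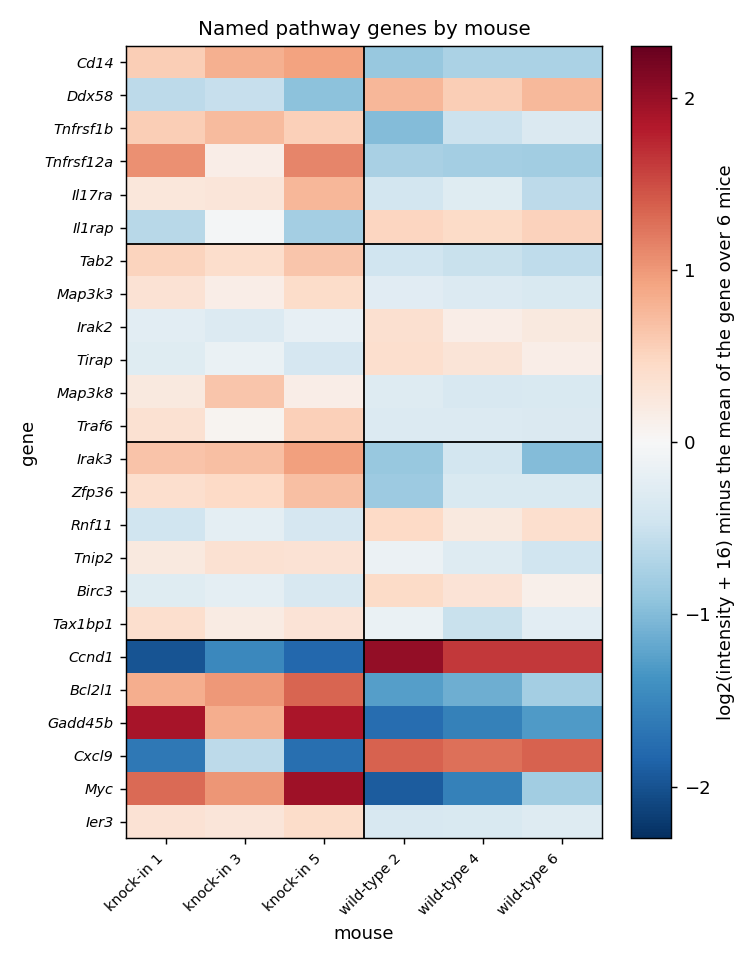
Colour gives log2(intensity + 16) minus the mean of each gene over the 6 mice, for the 6 genes with the smallest p in each pathway list (from top to bottom, ligands and receptors, kinases and adaptors, brakes and feedback, classical targets), with knock-in mice left of wild-type mice. Cd14, Tab2, Irak3 and Myc are red in all 3 knock-in mice, and Ddx58, Irak2, Rnf11 and Ccnd1 are blue in them; these genes were picked by their p, so the separation is a description.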

How the data were processed

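The deposited values, 35512 probe sets on each array, are linear intensities in whole numbers. The labels' protocols name an RNeasy kit for the RNA, a SuperScript kit for the cDNA and transcription in vitro with a biotin label. The authors' probe summary and normalization are not stated in the sources used. Gene symbols come from the platform's annotation, which may be outdated, and those of all 9 members match RefSeq in GRCm38.p6.

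Values were transformed as log2(intensity + 16). The 26664 probe sets with a mean at or above the 25th percentile entered the fit in limma 3.58.1 under R 4.3.3 (lmFit, eBayes with trend), two-sided, with Benjamini-Hochberg adjustment over all of them and a threshold of 0.05. Each gene was represented by its brightest probe set with 1 symbol. Each mouse is a separate animal by its label, and the number of arrays limits the precision. The procedure was tested on simulated data.

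Members and lists were chosen with earlier results of these data known. Besides the members, up to 6 genes of each list with the smallest p were named, with Lmna, Tnfaip3, Atm, Ikbkg, Chuk, Ikbkb, Map3k14, Tnf, Il6, Cxcl1, Ccl2 and Tsc22d3 whatever their values, and, for the 2 called members with the largest change, the 5 probe sets with the nearest pattern. Alternatives were other pseudocounts, normalizations, filters, priors, array weights, mean of probe sets per gene, and each mouse left out. Figures were drawn with matplotlib 3.10.9.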

Additional observations from a re-analysis of the deposited data

How the results depend on the processing

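Rela, Rel and Nfkbib were called higher under all 16 alternatives, with log2 changes of 0.63 to 0.93, 0.99 to 1.27 and 0.90 to 1.05 and adjusted p of up to 0.0486, 0.0191 and 0.0132. Nfkb2, Nfkbia, Nfkbiz, Relb and Bcl3 were called under none of the alternatives that could test them, and Nfkbie was called (lower) without wild-type replicate 6 alone. The filter at the 50th percentile left Relb, Nfkbie, Commd1, Tnf and Ccl2 untested. Relb turned to -0.043 with quantile normalization and -0.049 with centred arrays, and lay between -0.060 and 0.062 with single mice left out (negative in the fits lacking wild-type replicate 6, knock-in replicate 3 and knock-in replicate 5). Bcl3 turned to 0.043 with array weights and ranged from -0.39 to 0.054 with single mice left out. In the same fits Atm ranged from -0.13 to 0.030 and Tsc22d3 from -0.22 to 0.30, both turning without wild-type replicate 2. None of these turned values passed the test, and the cause was not tested. With centred arrays, 47.8% of called probe sets were higher (3141 higher, 3426 lower) in place of 57.8% (3991 and 2913).

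Leaving out 1 mouse at a time, 2427 to 4293 probe sets were called higher and 1810 to 3457 lower, 3 members were called higher and 0 to 1 lower. Over the same 6 fits, 4 to 11 kinases and adaptors rose and 3 to 5 fell, 4 to 10 brakes rose and 2 to 3 fell, 6 to 9 classical targets rose and 5 to 10 fell, and 4 ligands and receptors rose and 5 to 7 fell. The lowest count of higher probe sets was that without knock-in replicate 1 (1810 lower). Without wild-type replicate 2, 2612 were higher and 1881 lower, and without wild-type replicate 6, 2581 were higher. The labels state no pairing of knock-in with wild-type mice, so no paired analysis was made. Dim signal limits what can be seen of Relb and Nfkbie.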

Other observations

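For the called members with the largest changes, Rel and Nfkbib, the probe sets with the nearest pattern over the 6 mice were listed among 16147 other genes, by the mean absolute difference of log2 values centred on each gene's own mean. For Nfkbib they were Plbd2 (0.044), Fam234b (0.045), Hbegf (0.046), Snx7 (0.048) and Nob1 (0.054), which had log2 changes of 0.88 to 0.98. Hbegf encodes a growth factor of the EGF family. For Rel they were Fndc3b (0.11), Atoh8 (0.12), Nudt4 (0.13), Ing3 (0.13) and Slc16a10 (0.13), with log2 changes of 1.01 to 1.27. The distances were larger for Rel than for Nfkbib. All 10 genes were called higher in knock-in liver, which the choice by likeness to a called member makes likely, and nothing about shared function or control follows from it.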
